A study of Mus musculus with 10 samples.

Results

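RNA ratios of 8 genes encoding receptors that position lymphocytes were followed across 5 comparisons of mouse splenic B cells. The genes were S1pr1, S1pr2, S1pr4, Ccr7, Ccr6, Cxcr4, Cxcr5 and Gpr183. They were taken as every probe whose gene symbol on the array was one of these names or an older synonym of it. That gave 9 probes, 2 for S1pr2 and 1 for each other gene, among 25344 probes and 22533 tested features. Older symbols were Edg1 for S1pr1, Edg5 for S1pr2, Edg6 for S1pr4, Blr1 for Cxcr5 and Ebi2 for Gpr183. All cells came from spleens of female mice aged 2 months and carried the label Ptger4+/+ or Ptger4-/-. Ptger4 is a receptor gene, and its product raises cyclic AMP when it binds prostaglandin E2 (PGE2). In each genotype, cells given F(ab')2 antibody fragments against IgM (anti-IgM), which engage the B cell receptor, were compared with cells in medium after 2 h. In each genotype, cells given anti-IgM and PGE2 were compared with cells given anti-IgM alone after 24 h. A last comparison was made between the genotypes, Ptger4-/- over Ptger4+/+, with anti-IgM and PGE2 for 24 h on both sides. How the Ptger4-/- mice were made, their strain and any pooling of mice are not given in the sources used here.

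B cells enter, cross and leave lymphoid tissue by following gradients of lipids and chemokines, and the 8 receptors all couple to heterotrimeric G proteins. S1pr1 senses sphingosine-1-phosphate, which is high in blood and lymph, and draws cells out of tissue, whereas S1pr2 couples to G proteins that restrain migration. Gpr183 senses oxysterols and brings activated B cells to the outer follicle and its border with the T cell zone. Ccr7 draws B cells towards the T cell zone, Cxcr5 towards the follicle, Cxcr4 towards stroma that makes Cxcl12, and Ccr6 responds to Ccl20. In resting lymphocytes, transcription factors such as Klf2 and Foxo1 have been linked to S1pr1 expression, a link that was not tested in these B cells.

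Each comparison was hybridised on 2 arrays with the dyes exchanged, so that the numerator was labelled with Cy3 on one array and with Cy5 on the other. They are called the Cy3 array and the Cy5 array here, and all values are log2 ratios of numerator over denominator turned by the labelled dyes. Neither the base of the logarithm nor the direction of the deposited ratios was given in the sources used here. Log2 of Cy5 over Cy3 was taken, and of 24 immediate-early genes 6 were then higher and 1 lower by at least 2-fold on both arrays of the anti-IgM comparison in Ptger4+/+ cells. Egr2 had 3.21, Egr1 2.49, Nr4a1 2.42 and Myc 2.60 there, as log2 ratios. If the values were natural logarithms, every fold given here would be larger. Only ratios were analysed, with no signal intensities, so the levels of the 8 receptors cannot be ranked and the cell type could not be checked from the level of its markers. Arrays have no read depth, and precision was limited by their number. It is not known here if both arrays of a pair were made from 1 pair of extracts, so the p-values may measure technical spread only.

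Over all features, turned values of paired arrays correlated at a Pearson r of 0.71 and 0.74 for anti-IgM in Ptger4+/+ and Ptger4-/- cells, 0.38 for PGE2 in Ptger4+/+ cells and 0.57 for the genotype comparison. The arrays of PGE2 in cells labelled Ptger4-/- correlated at -0.22, so they did not mirror each other when turned. Ptger4 itself had log2 ratios of 0.46 and 0.52 in cells labelled Ptger4-/- over Ptger4+/+ cells, with a mean of 0.49 ± 0.07 (standard error) and an adjusted p of 0.0021 in the limma fit. The array thus showed no loss of the Ptger4 signal in the cells labelled Ptger4-/-, the place of the probe relative to the deleted part is not known here, and the genotypes below are those of the labels. In a bulk sample, fewer cells of a type and less RNA per cell cannot be told apart.

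In 1 limma fit with a dye effect, a gene was called where its p, adjusted by Benjamini-Hochberg over 22533 features, was under 0.05. Standard errors (SE) are those of this fit. They pool the spread of each gene over the 10 arrays, moderated by limma with a prior drawn from all features. They do not measure the spread of the 2 arrays of a comparison alone. After 2 h of anti-IgM, Gpr183 rose and S1pr1, Ccr6 and S1pr4 fell in Ptger4+/+ cells, 4 of the 8 receptors against 21.1% of all features called. In cells labelled Ptger4-/-, Gpr183, Ccr7, Cxcr4 and Ccr6 rose and S1pr1 fell, 5 of 8 against 23.3%. With PGE2 for 24 h, Ccr6, S1pr1, Ccr7 and Cxcr5 rose and Gpr183 fell in Ptger4+/+ cells, 5 of 8 against 26.1%. The same treatment of cells labelled Ptger4-/- gave 0 calls among the 8 by limma, where 0.146% of all features were called. There, 2 of the 8 had an unadjusted p under 0.05, beside 1880 of the 22533 features. In the cells labelled Ptger4-/- over Ptger4+/+ cells, Gpr183 and S1pr4 were higher and S1pr1, Ccr6, Cxcr5 and Ccr7 lower, 6 of 8 against 26.9%. The median log2 ratio of the 8 was -0.19, 0.14, 0.20, -0.00 and -0.11 in these comparisons in turn, beside medians between -0.00 and 0.01 over all features. The genotype comparison shares an RNA condition with each PGE2 comparison, so their values are not independent of each other. Members and lists were chosen with earlier results of these data known. Shares set against all features, here and below, are therefore a description and no test of enrichment.

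**Figure D1:**
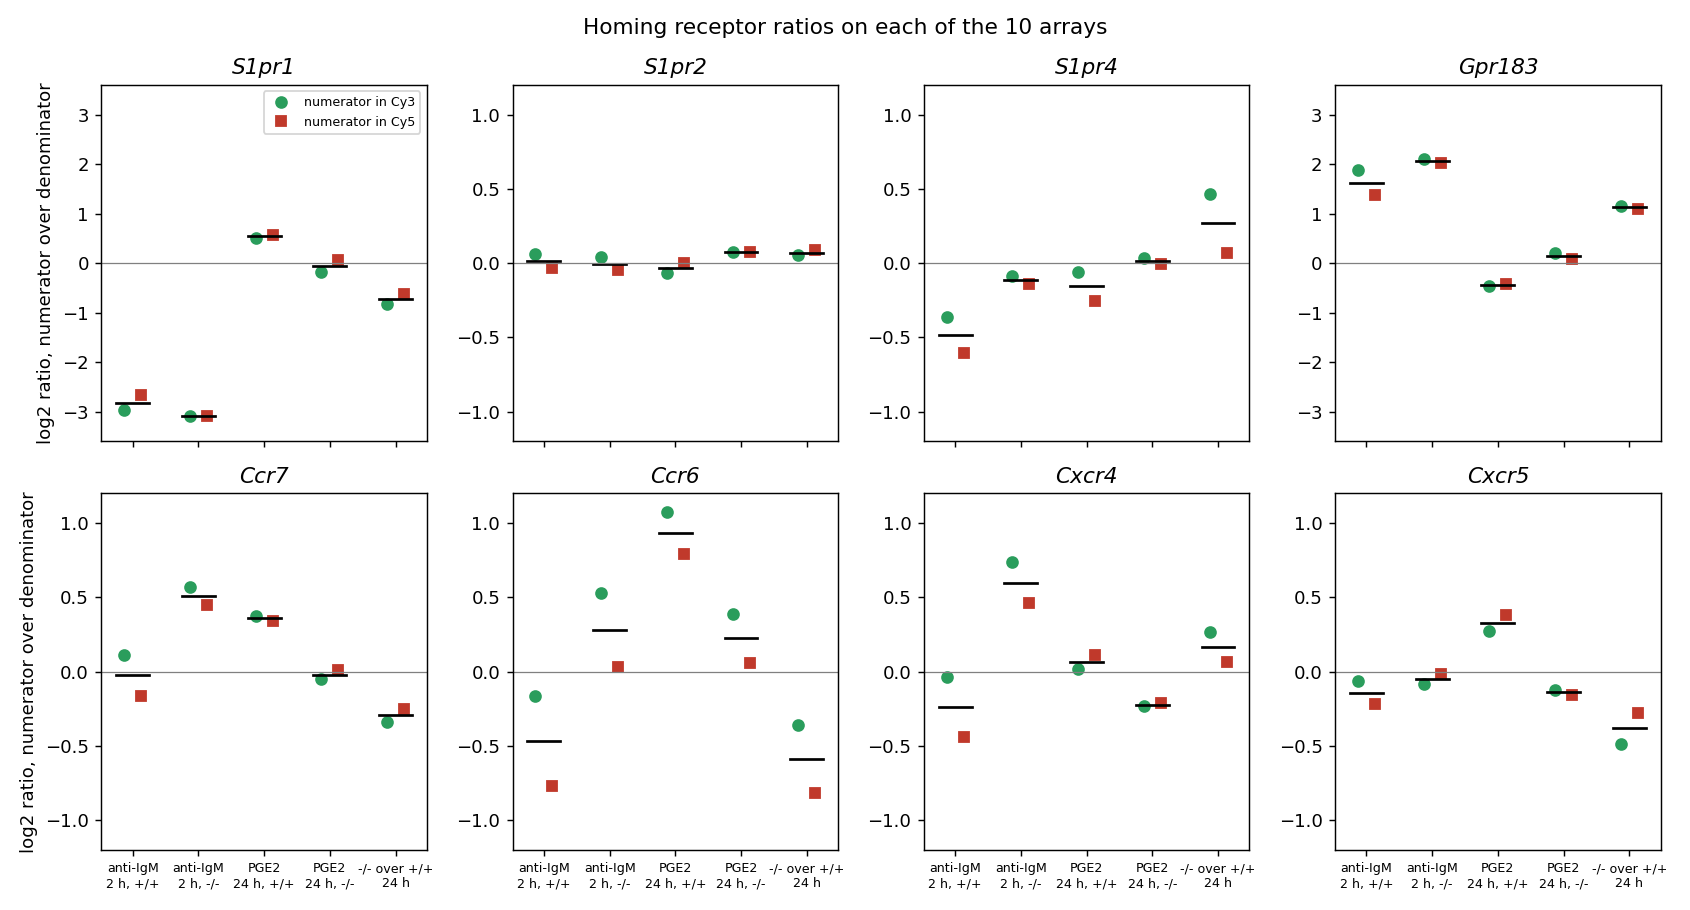
Log2 ratio of each receptor gene on every array (vertical axis) in the 5 comparisons (horizontal axis). Circles are arrays with the numerator in Cy3, squares arrays with it in Cy5, and bars the mean of both. S1pr1 and Gpr183 are drawn on a wider vertical scale than the other genes. S1pr1 lies between -3.09 and -2.66 and Gpr183 between 1.38 and 2.10 on all 4 anti-IgM arrays, while S1pr2 stays within 0.09 of 0 on all 10 arrays.

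S1pr1 (chr3:115710433-115715055, GRCm38.p6) had the largest change of the group, a fall with anti-IgM. With anti-IgM for 2 h its log2 ratio was -2.98 on the Cy3 array and -2.66 on the Cy5 array of Ptger4+/+ cells, and -3.09 on both arrays of cells labelled Ptger4-/-. All 4 arrays showed a deep fall. The means were -2.82 ± 0.06 (SE, n = 2 arrays), a 7.05-fold fall with an adjusted p of 1.18e-06 by limma, and -3.09 ± 0.06, an 8.52-fold fall with an adjusted p of 5.6e-07 by limma. Among 22533 features, S1pr1 ranked 2 from the lowest in Ptger4+/+ cells and 3 from the lowest in the other genotype. The 24 h comparisons set PGE2 against anti-IgM alone. PGE2 added to anti-IgM gave S1pr1 ratios of 0.51 and 0.57 in Ptger4+/+ cells, a 1.46-fold rise on both arrays (adjusted p 0.00097 by limma). In cells labelled Ptger4-/- the arrays gave -0.19 and 0.06, on either side of 0, and the mean of -0.06 ± 0.06 was not called (adjusted p 0.88 by limma). Cells labelled Ptger4-/- over Ptger4+/+ cells, both with PGE2, gave -0.82 and -0.63. S1pr1 was thus lower on both arrays, by 1.65-fold (adjusted p 0.00022 by limma). The S1pr1 call for PGE2 in Ptger4+/+ cells kept its side of the threshold whichever array was left out, and was lost when only the arrays of that comparison were fitted (adjusted p 0.058 by limma).

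S1pr2 (chr9:20965952-20976793), the receptor that restrains migration, showed no call. Its mean of 2 probes was 0.06 and -0.03 for anti-IgM in Ptger4+/+ cells, 0.04 and -0.05 in cells labelled Ptger4-/-, -0.07 and 0.00 for PGE2 in Ptger4+/+ cells, 0.08 and 0.08 for PGE2 in cells labelled Ptger4-/-, and 0.05 and 0.09 between genotypes, on the Cy3 and Cy5 array in turn. These 10 values all lay near 0, and the 95% intervals of the 5 means reached from -0.14 to 0.19 at the outermost. Single probes reached -0.16 and 0.25. Without intensities, a probe that did not detect its transcript would also give ratios near 0, so an unchanged level was not shown.

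The RefSeq promoter table held 5 of the 8 genes, with 6 windows in all. The 250 bases before the start were searched on both strands for 6 motifs: TGACG, the half-site of the cyclic AMP response element (CRE), TGACGTCA, the full CRE, CACCC, a box bound by KLF factors, TGTTTAC, a FOXO box, TGANTCA, an AP-1 site, and GCGNGGGCG, an EGR site. Over 32851 windows of the same length, these were found in 17.8%, 1.55%, 52%, 3.17%, 6.75% and 4.7%. A full CRE holds 2 overlapping half-sites. The S1pr2 window is shown because it holds the only full CRE among the 6 windows although S1pr2 had no call with PGE2, a ligand whose receptor Ptger4 acts through cyclic AMP. It lies at chr9:20976794-20977043 on the minus strand of GRCm38.p6, with the CRE starting 181 bases and a reversed KLF box 98 bases before the start, both in capitals.
S1pr2: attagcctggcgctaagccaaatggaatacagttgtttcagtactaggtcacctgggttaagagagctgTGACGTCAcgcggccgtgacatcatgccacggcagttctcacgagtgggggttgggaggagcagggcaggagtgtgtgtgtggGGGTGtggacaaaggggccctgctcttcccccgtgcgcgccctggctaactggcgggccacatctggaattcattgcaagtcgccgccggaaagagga
A match describes letters and not a site in use.

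S1pr4 (chr10:81497745-81500137), another sphingosine-1-phosphate receptor found on blood cells, changed less than S1pr1. The anti-IgM arrays of Ptger4+/+ cells gave -0.37 and -0.60, and those of cells labelled Ptger4-/- gave -0.09 and -0.14. The 4 arrays were all below 0. The difference between genotypes, 0.37 ± 0.10, was not called (adjusted p 0.12 by limma). Only the mean of Ptger4+/+ cells, -0.48 ± 0.07, passed the threshold (adjusted p 0.0017 by limma). The ratios with PGE2 were -0.06 and -0.25 in Ptger4+/+ cells and 0.03 and -0.00 in cells labelled Ptger4-/-, neither of them called. Between genotypes, the Cy3 array gave 0.47 and the Cy5 array 0.07. The mean of 0.27 ± 0.07 was called (adjusted p 0.025 by limma). It rested on the Cy3 array, without which the value was 0.13 and not called. The call was also lost without the dye term (adjusted p 0.17 by limma) and from the arrays of that comparison alone (adjusted p 0.36 by limma). The promoter window of S1pr4 held 1 KLF box and none of the other motifs.

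Gpr183 (chr14:121952331-121965193) moved opposite to S1pr1 in every called comparison. Anti-IgM for 2 h gave 1.87 and 1.38 in Ptger4+/+ cells and 2.10 and 2.03 in cells labelled Ptger4-/-. All 4 arrays were far above 0. The means were 1.63 ± 0.09, a 3.09-fold rise (adjusted p 1.6e-05 by limma), and 2.06 ± 0.09, a 4.18-fold rise (adjusted p 4.76e-06 by limma). PGE2 for 24 h gave -0.46 and -0.42 in Ptger4+/+ cells, a 1.36-fold fall (adjusted p 0.0093 by limma), and 0.20 and 0.08 in cells labelled Ptger4-/-, where the mean of 0.14 ± 0.09 was not called (adjusted p 0.75). The 2 pairs of arrays lay on opposite sides of 0. Without the Cy3 array of PGE2 in Ptger4+/+ cells the value was -0.32 and no longer called. That call was also lost with centred and scaled arrays, at -0.37 (adjusted p 0.084 by limma), and from the arrays of that comparison alone (adjusted p 0.093 by limma). In cells labelled Ptger4-/- over Ptger4+/+ cells, the arrays gave 1.16 and 1.09, a difference of 2.18-fold (adjusted p 0.00012 by limma), the largest of the 8 receptors in that comparison.

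The Gpr183 window lies at chr14:121965194-121965443 on the minus strand and is shown because the gene had the largest rise with anti-IgM among the receptors. It is all in lower case because none of the 6 motifs was found in it.
Gpr183: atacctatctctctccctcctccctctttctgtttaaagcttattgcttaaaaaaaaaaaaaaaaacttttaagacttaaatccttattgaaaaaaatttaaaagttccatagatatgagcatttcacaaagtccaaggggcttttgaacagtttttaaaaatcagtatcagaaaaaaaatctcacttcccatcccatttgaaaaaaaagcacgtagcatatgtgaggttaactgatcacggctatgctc
This says only that those letters are not in these 250 bases.

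Ccr6 (chr17:8236041-8258519), the receptor for Ccl20, had the largest rise of the group with PGE2. The arrays gave 1.08 and 0.79 in Ptger4+/+ cells, both well above 0. The mean of 0.93 ± 0.06 was a 1.91-fold rise that ranked 36 from the highest of 22533 features (adjusted p 0.00012 by limma), and Ccr6 was the only receptor called there when only the arrays of that comparison were fitted. In cells labelled Ptger4-/-, PGE2 gave 0.39 and 0.06, with a mean of 0.22 ± 0.06, a raw p of 0.0078 and an adjusted p of 0.40 by limma. Cells labelled Ptger4-/- over Ptger4+/+ cells gave -0.36 and -0.82, with a lower value of -0.59 ± 0.06 (adjusted p 0.0005 by limma). At 2 h, anti-IgM gave -0.17 and -0.77 in Ptger4+/+ cells but 0.53 and 0.03 in cells labelled Ptger4-/-. The genotypes lay on opposite sides of 0. The means were -0.47 ± 0.06 (adjusted p 0.0012 by limma) and 0.28 ± 0.06 (adjusted p 0.013 by limma). Ccr6 was the receptor with the strongest dye effect, -0.22 against -0.09 to 0.08 for the other 7, and its Cy3 array was the higher one in all 5 comparisons. Without the dye term the adjusted p was 0.20 and 0.53 for anti-IgM in Ptger4+/+ and Ptger4-/- cells and 0.093 between genotypes. The anti-IgM call in cells labelled Ptger4-/- was also lost when either of its arrays was left out (adjusted p 0.18 without the Cy3 array and 0.080 without the Cy5 array).

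RefSeq gives Ccr6 2 windows. The window at chr17:8242276-8242525 on the plus strand is shown because it holds a CRE half-site, in capitals and 207 bases before the start, and because Ccr6 had the largest rise with PGE2. The other window, at chr17:8235793-8236042, held none of the 6 motifs.
Ccr6: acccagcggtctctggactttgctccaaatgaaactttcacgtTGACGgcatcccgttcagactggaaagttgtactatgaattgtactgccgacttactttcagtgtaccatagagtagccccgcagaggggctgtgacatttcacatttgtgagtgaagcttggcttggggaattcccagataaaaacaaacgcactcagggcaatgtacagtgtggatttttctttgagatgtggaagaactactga
A half-site was present in 17.8% of all windows.

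Ccr7 (chr11:99144199-99155077), which directs cells to the T cell zone, was called with anti-IgM in 1 of the 2 genotypes. Its ratios were 0.11 and -0.16 in Ptger4+/+ cells and 0.57 and 0.45 in cells labelled Ptger4-/-. The first pair straddled 0 and the second lay above it. The mean was -0.03 ± 0.07 and not called in Ptger4+/+ cells, and 0.51 ± 0.07, a 1.42-fold rise, in cells labelled Ptger4-/- (adjusted p 0.0011 by limma). The difference between genotypes had an adjusted p of 0.047 by limma and kept its call in 1 of 10 fits with an array left out. With PGE2 the arrays gave 0.38 and 0.34 in Ptger4+/+ cells, a 1.28-fold rise (adjusted p 0.0077 by limma), against -0.05 and 0.01 in cells labelled Ptger4-/-. Between genotypes they gave -0.34 and -0.25, a 1.23-fold lower value in the cells labelled Ptger4-/- (adjusted p 0.017 by limma). These smaller Ccr7 calls were lost when either array of their own comparison was left out, with adjusted p of 0.076 and 0.080 for PGE2 and of 0.27 and 0.059 between genotypes.

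Cxcr5 (chr9:44511787-44526444), the receptor for the follicular chemokine Cxcl13, was not called with anti-IgM at 2 h. The arrays gave -0.07 and -0.22 in Ptger4+/+ cells and -0.09 and -0.02 in cells labelled Ptger4-/-. All 4 were slightly below 0, with means of -0.14 ± 0.06 and -0.05 ± 0.06. PGE2 gave 0.27 and 0.38 in Ptger4+/+ cells, a 1.25-fold rise (adjusted p 0.0098 by limma), and -0.12 and -0.15 in cells labelled Ptger4-/-, whose mean of -0.14 was not called (adjusted p 0.65). The pairs lay on opposite sides of 0. Cells labelled Ptger4-/- over Ptger4+/+ cells gave -0.49 and -0.28, a 1.30-fold lower value (adjusted p 0.0049 by limma). The PGE2 call of Cxcr5 was lost without its Cy5 array (adjusted p 0.11) or its Cy3 array (0.067), and the genotype call without its Cy3 array (0.11).

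Cxcr4 (chr1:128588199-128592299), the receptor for Cxcl12, was called in 1 comparison. Anti-IgM gave -0.04 and -0.44 in Ptger4+/+ cells and 0.74 and 0.46 in cells labelled Ptger4-/-. The difference between genotypes, 0.84 ± 0.12, was called (adjusted p 0.030 by limma), but not without the dye term (adjusted p 0.13 by limma). The mean of -0.24 ± 0.09 in Ptger4+/+ cells was not called (adjusted p 0.11 by limma), and that of 0.60 ± 0.09, a 1.51-fold rise, was (adjusted p 0.0017 by limma). PGE2 gave 0.02 and 0.11 in Ptger4+/+ cells and -0.23 and -0.21 in cells labelled Ptger4-/-. The latter pair was tight but its adjusted p was 0.55 by limma, at a raw p of 0.036. Between genotypes at 24 h, Cxcr4 had 0.27 and 0.06 with no call (adjusted p 0.21).

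The Cxcr4 window lies at chr1:128592300-128592549 on the minus strand and is shown for the gene whose anti-IgM response differed most between genotypes. It holds a KLF box 219 bases and a reversed EGR site 94 bases before the start, both in capitals.
Cxcr4: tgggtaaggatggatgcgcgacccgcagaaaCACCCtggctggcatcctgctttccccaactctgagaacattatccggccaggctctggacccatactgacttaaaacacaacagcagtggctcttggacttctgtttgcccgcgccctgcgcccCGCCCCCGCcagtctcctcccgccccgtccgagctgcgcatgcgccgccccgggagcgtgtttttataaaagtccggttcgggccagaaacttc
An EGR site occurred in 4.7% of all windows.

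Whether the genotypes differed in their response was tested as the difference of log2 ratios. For anti-IgM at 2 h, Ccr6, Cxcr4 and Ccr7 had a higher ratio in the cells labelled Ptger4-/-, 3 of 8 against 1.74% of all features called. Cxcr4 went from -0.24 to 0.60, a difference of 0.84 ± 0.12 (adjusted p 0.030 by limma). Ccr6 went from -0.47 to 0.28, a difference of 0.75 ± 0.09 (adjusted p 0.020 by limma), and Ccr7 from -0.03 to 0.51, a difference of 0.53 ± 0.09 (adjusted p 0.047 by limma). S1pr4, with a difference of 0.37 ± 0.10, Gpr183, with 0.44 ± 0.12, and S1pr1, with -0.27 ± 0.09, had adjusted p of 0.12, 0.15 and 0.22 by limma and were not called. For S1pr2 and Cxcr5 the 95% intervals were -0.18 to 0.13 and -0.12 to 0.31. All 3 called differences were lost without the dye term, and after leaving out either anti-IgM array of cells labelled Ptger4-/-, the Cy5 anti-IgM array of Ptger4+/+ cells, or any 1 array of the genotype comparison or of PGE2 in cells labelled Ptger4-/-. Ccr7 was also lost without either array of PGE2 in Ptger4+/+ cells (adjusted p 0.060), and without the Cy3 anti-IgM array of Ptger4+/+ cells Gpr183 was called as well, at 0.66 (adjusted p 0.037). Adjusted p over these and the other alternatives reached 0.53 for Ccr7, 0.71 for Ccr6 and 0.43 for Cxcr4.

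For PGE2 at 24 h, Ccr6, S1pr1, Cxcr5 and Ccr7 had a lower ratio and Gpr183 a higher one in the cells labelled Ptger4-/-, 5 of 8 against 12.7% of all features called. The S1pr1 ratio was 0.54 in Ptger4+/+ cells and -0.06 in the others, a difference of -0.61 ± 0.09 (adjusted p 0.0057 by limma). That of Ccr6 was 0.93 and 0.22, a difference of -0.71 ± 0.09 (adjusted p 0.0029 by limma). Gpr183 had -0.44 and 0.14, a difference of 0.58 ± 0.12 (adjusted p 0.022 by limma). Cxcr5 had a difference of -0.47 ± 0.09 (adjusted p 0.017 by limma) and Ccr7 one of -0.38 ± 0.09 (adjusted p 0.042 by limma). Cxcr4, at -0.29 ± 0.12, was not called (adjusted p 0.20). The pair of arrays of PGE2 in cells labelled Ptger4-/- that enters these differences did not mirror over all features, as given above. Ccr6 kept its call whichever array was left out, but lost it without the dye term (adjusted p 0.24) and from the arrays of these comparisons alone (0.18). S1pr1 lost it with centred and scaled arrays (adjusted p 0.099), from those arrays alone (0.13) and without the Cy3 array of PGE2 in cells labelled Ptger4-/- (adjusted p 0.053), and Cxcr5, Gpr183 and Ccr7 lost it without either array of that pair (adjusted p 0.073 to 0.25). Without an array of PGE2 in Ptger4+/+ cells, Ccr7 and Cxcr5 lost it for either array and Gpr183 for the Cy3 array (adjusted p 0.059 to 0.14). Ccr7 further lost it without any 1 array of the genotype comparison (adjusted p 0.054) or of anti-IgM in cells labelled Ptger4-/- (0.064).

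**Figure D2:**
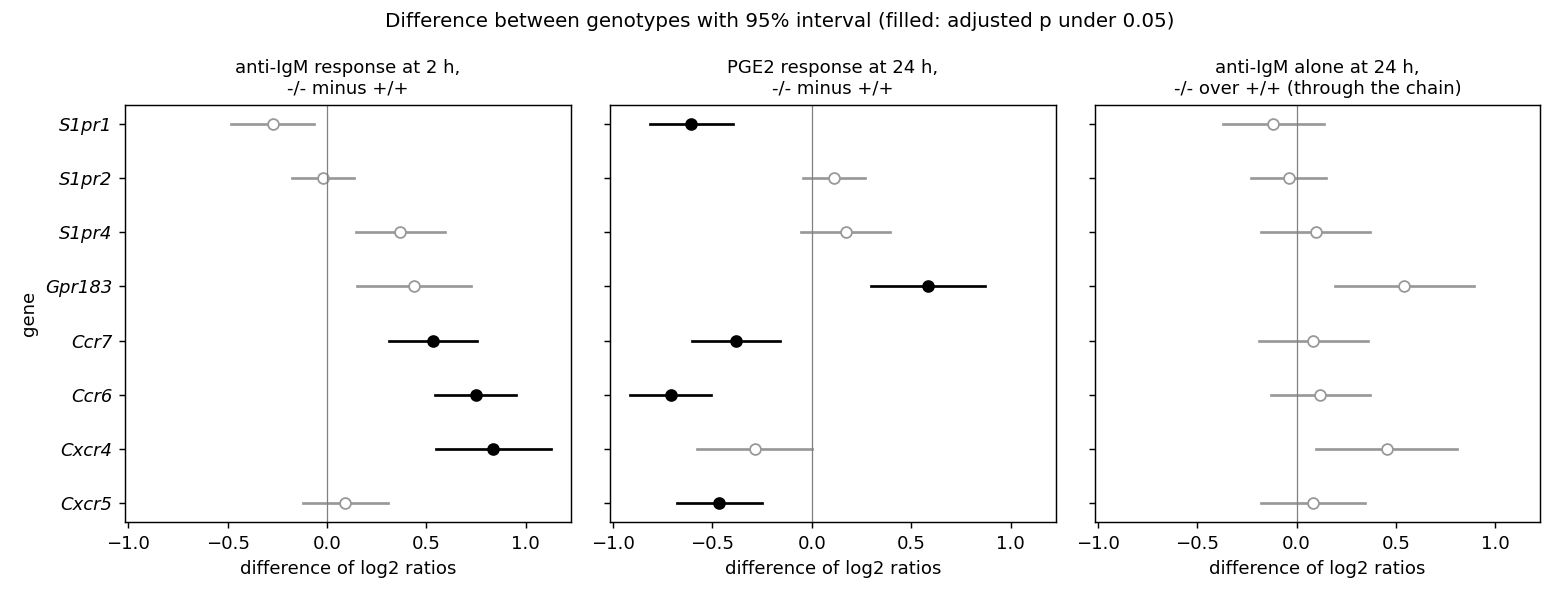
Differences between cells labelled Ptger4-/- and Ptger4+/+ for each receptor gene (vertical axis), as differences of log2 ratios with 95% intervals (horizontal axis). Filled points passed an adjusted p of 0.05. At 2 h, Cxcr4, Ccr6 and Ccr7 lie at 0.84, 0.75 and 0.53. For PGE2, S1pr1 and Ccr6 lie at -0.61 and -0.71 and Gpr183 at 0.58, and through the chain of 24 h arrays no point is filled.

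The genotypes with anti-IgM alone at 24 h were not hybridised together, and their ratio was computed through the chain of the 24 h comparisons. By limma 0 of the 8 receptors were called, where 0.00444% of all features were. An unadjusted p under 0.05 was found for 2 of the 8, beside 1747 of the 22533 features. Gpr183 was at 0.54 ± 0.15 (adjusted p 0.47) and Cxcr4 at 0.45 ± 0.15 (adjusted p 0.57), both higher in cells labelled Ptger4-/-. The 95% interval of Gpr183 was 0.19 to 0.89. The 1.13 measured with PGE2 is itself a term of the chain, so the chain value is not independent of it. S1pr1 stood at -0.12, with a 95% interval of -0.37 to 0.14.

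Likeness to S1pr1 and Gpr183, the members with a log2 ratio of at least 1 in size, was measured as the root mean square difference over the 10 arrays, among 16642 genes with a formal symbol. Closest to S1pr1 was Il10ra, a subunit of the interleukin-10 receptor, at 0.17 log2 units, where S1pr1 itself had a root mean square size of 1.92. Il10ra had means of -2.53 and -3.18 with anti-IgM, 0.51 and -0.21 with PGE2 and -0.59 between genotypes. Il16, which encodes a cytokine precursor, followed at 0.24 and Sting1, a sensor of cyclic dinucleotides, at 0.26. Closest to Gpr183 was Casp4, an inflammatory caspase, at 0.19, where Gpr183 had a size of 1.30. Casp4 had means of 1.72 and 1.79 with anti-IgM, -0.68 and 0.13 with PGE2 and 1.18 between genotypes. Cd72, a B cell co-receptor, stood at 0.20 and Dmxl1 at 0.21. These genes share arrays, dyes and RNA with the receptors, so their likeness is a description.

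**Figure D3:**
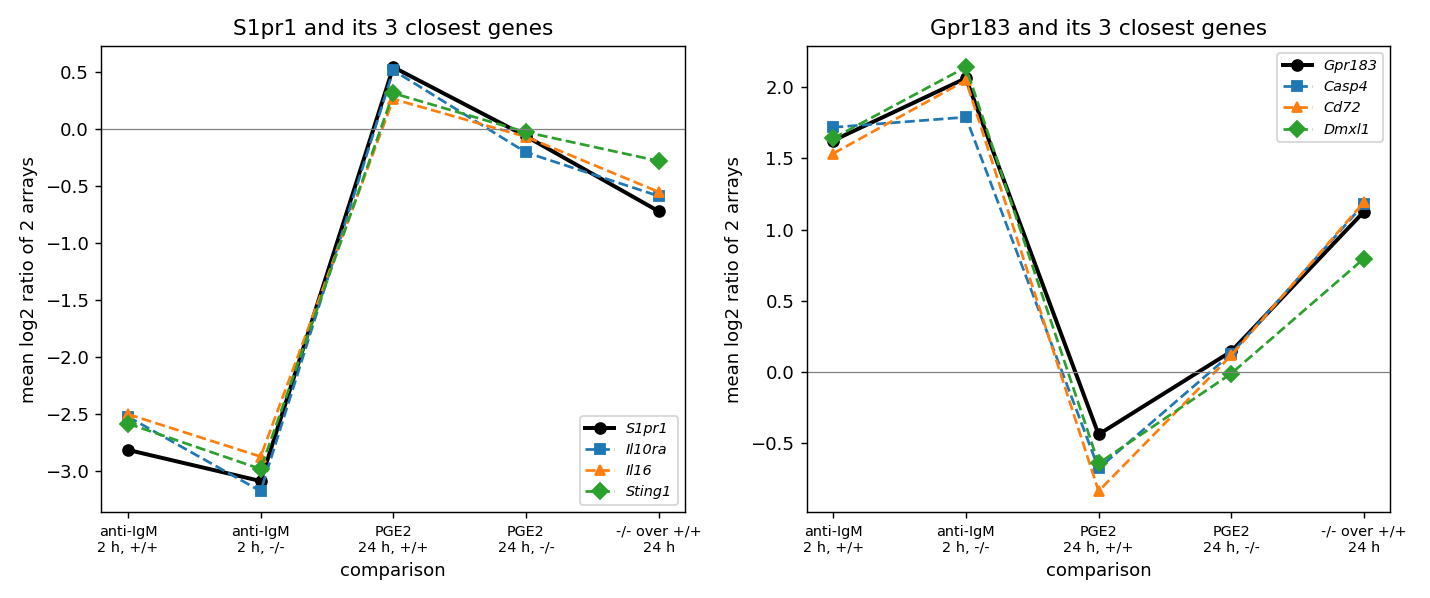
Mean log2 ratio of 2 arrays (vertical axis) in the 5 comparisons (horizontal axis) for S1pr1 and for Gpr183, each with the 3 genes closest to it. The lines join the points of a gene and show no order in time. S1pr1 and its closest genes lie between -3.18 and -2.50 with anti-IgM, and Gpr183 and its closest genes between 1.53 and 2.14.

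Genes linked to these receptors were described from lists. Their calls were not rechecked under the alternative fits, which were read for the receptors only. Klf2, linked to S1pr1 transcription in lymphocytes, had -1.51 and -1.29 with anti-IgM in Ptger4+/+ cells and -1.33 and -1.34 in cells labelled Ptger4-/-. It fell on all 4 arrays, with means of -1.40 ± 0.06 (adjusted p 6.02e-06 by limma) and -1.34 ± 0.06 (adjusted p 5.46e-06 by limma). With PGE2 its arrays gave 0.31 and 0.39 in Ptger4+/+ cells, a rise (adjusted p 0.0048 by limma), and -0.25 and -0.10 in cells labelled Ptger4-/-, with no call. The difference between genotypes in this PGE2 response was -0.52 ± 0.08 (adjusted p 0.0073 by limma). It rests in part on the arrays of PGE2 in cells labelled Ptger4-/-, which did not mirror each other. Klf2 was lower between genotypes with PGE2 at -0.20 (adjusted p 0.040 by limma). Foxo1 fell with anti-IgM, at -0.96 and -0.77 in Ptger4+/+ and Ptger4-/- cells, and was called in none of the 24 h comparisons. Cd69, a membrane protein that pulls S1pr1 from the cell surface, rose with anti-IgM at 2.01 and 2.24 and was 0.51 higher between genotypes with PGE2 (adjusted p 0.0065 by limma).

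Gnai2 encodes a G protein subunit through which chemokine receptors signal. Its arrays gave -1.45 and -1.66 with anti-IgM in Ptger4+/+ cells but -0.44 and -0.54 in cells labelled Ptger4-/-. Both genotypes fell, and the difference of 1.07 ± 0.07 was called (adjusted p 0.0051 by limma). PGE2 gave a Gnai2 mean of -1.38 ± 0.05 in Ptger4+/+ cells (adjusted p 3.02e-05 by limma) and of -0.16 ± 0.05 in cells labelled Ptger4-/- (adjusted p 0.43). The value between genotypes was 1.49 ± 0.05 (adjusted p 7.58e-06 by limma). Rgs1, a brake on such signalling, had -0.07 and 1.29 with anti-IgM in Ptger4+/+ cells and -0.13 and 1.35 in cells labelled Ptger4-/-, so that its dyes disagreed at 2 h. At 24 h its arrays gave -0.53 and -0.50 with PGE2 in Ptger4+/+ cells, -0.10 and -0.13 in cells labelled Ptger4-/- and 0.68 and 0.47 between genotypes. With a standard error of 0.31, none of the 5 Rgs1 means was called. The fit pools the spread of all arrays, so this standard error carries the disagreement at 2 h into the 24 h means. S1pr3, a sphingosine-1-phosphate receptor of marginal zone B cells, rose with anti-IgM at 0.39 and 0.51 and was not called at 24 h. Grk2, Ch25h, Sphk1, Sgpl1 and Cxcl12, which act on receptor desensitisation and on the ligands, were called in none of the 5 comparisons.

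**Figure D4:**
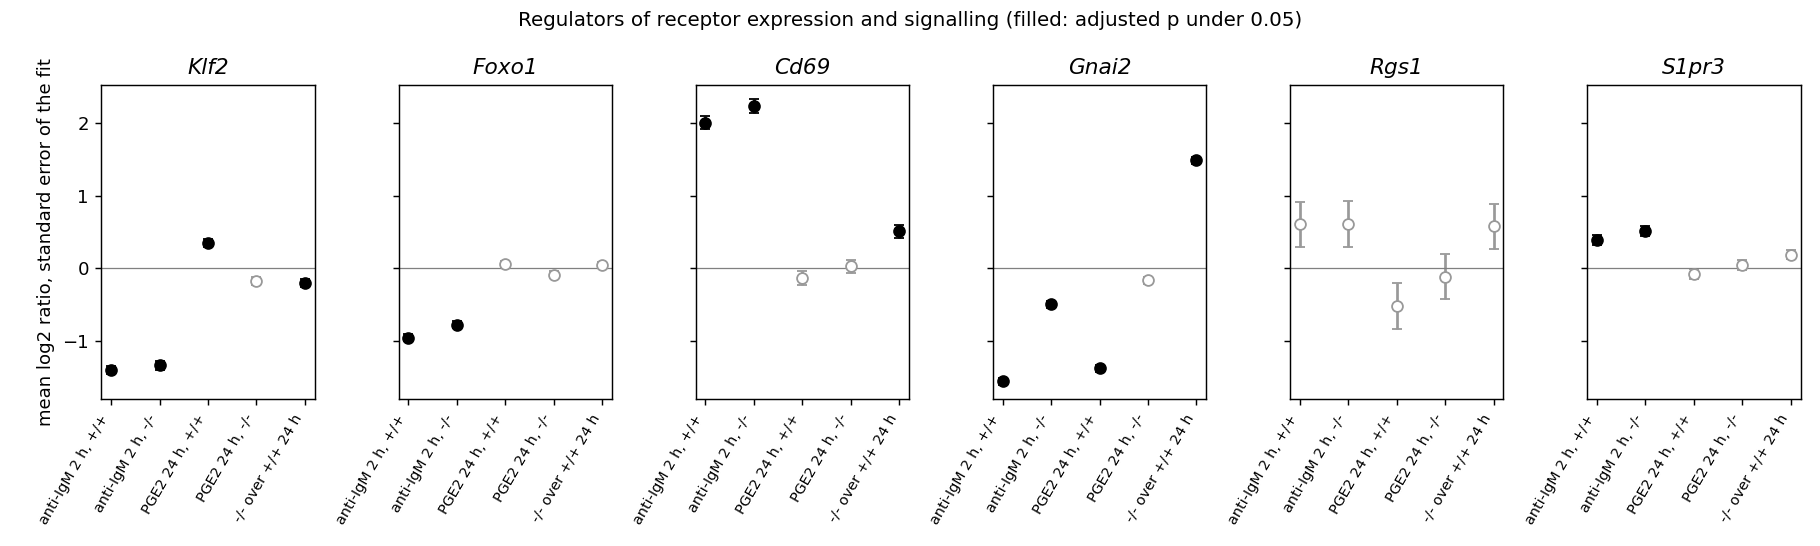
Mean log2 ratio with the standard error of the fit (vertical axis) in the 5 comparisons (horizontal axis) for Klf2, Foxo1, Cd69, Gnai2, Rgs1 and S1pr3. Filled points passed an adjusted p of 0.05. Klf2 falls to -1.40 and -1.34 with anti-IgM, Gnai2 to -1.56 and -0.49, and the open points of Rgs1 carry a standard error of 0.31.

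Of 39 measured receptors for other chemoattractants and lipids, 4 rose and 8 fell with anti-IgM in Ptger4+/+ cells, and 3 rose and 6 fell in cells labelled Ptger4-/-. P2ry10, a lysophospholipid receptor, fell to -1.91 and -2.35, and Gpr65, an acid-sensing receptor, rose to 1.16 in both genotypes. With PGE2 in Ptger4+/+ cells 10 rose and 1 fell, with Lpar6 at 0.44 and Ackr3 at -0.15. Between genotypes, 3 had a higher and 7 a lower ratio. Their medians were -0.01, 0.03, 0.07 and -0.07 in these comparisons. The shares called, 30.8%, 23.1%, 28.2% and 25.6%, stood beside 21.1%, 23.3%, 26.1% and 26.9% of all features, so most were near the background. The 21 ligands and ligand enzymes had 0 higher and 3 lower, 0 and 2, 3 and 2, and 2 and 1 in the same order, shares of 9.52% to 23.8% that were all below the background. Among them were Sgpp1, a sphingosine-1-phosphate phosphatase, at -0.48 with anti-IgM in Ptger4+/+ cells, and Plpp3 at -0.41 in cells labelled Ptger4-/-. Each was also called lower with anti-IgM in the other genotype. Ccl19, a ligand of Ccr7, rose to 0.23 with PGE2 in Ptger4+/+ cells, and Cers2, a ceramide synthase, was 0.42 higher between genotypes.

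Among 31 genes of G protein coupling, 4 rose and 9 fell with anti-IgM in Ptger4+/+ cells and 5 rose and 6 fell in cells labelled Ptger4-/-. Rgs2 rose to 1.49 in Ptger4+/+ cells and Rgs14 fell to -1.16 in cells labelled Ptger4-/-. Each was also called in the same direction in the other genotype. With PGE2 in Ptger4+/+ cells 2 rose and 13 fell, with Gna15 at 0.45, and between genotypes 13 were higher and 3 lower, with Arhgef1 at -0.24. The medians were -0.08, 0.02, -0.10 and 0.16, and the shares called 41.9%, 35.5%, 48.4% and 51.6%, beside 21.1%, 23.3%, 26.1% and 26.9% of all features. Of 28 genes of migration signalling, 2 rose and 12 fell, 4 rose and 11 fell, 2 rose and 10 fell, and 8 were higher and 2 lower in those comparisons, shares of 50%, 53.6%, 42.9% and 35.7%. Arhgap45 fell to -2.52 and -2.43 with anti-IgM, and Rap1b, a GTPase of integrin activation, rose to 0.90 and 1.26. Ptk2b, a kinase of adhesion signalling, was the 1 migration gene of 28 called with PGE2 in cells labelled Ptger4-/-, against 0.146% of all features. It had -0.57 there (adjusted p 0.039 by limma), on arrays that did not mirror each other, against 0.59 in Ptger4+/+ cells. Rap1a was 1.47 higher between genotypes.

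The 21 adhesion molecules gave 2 rises and 4 falls with anti-IgM in Ptger4+/+ cells, 3 and 3 in cells labelled Ptger4-/-, 2 and 4 with PGE2 in Ptger4+/+ cells, and 7 higher and 3 lower between genotypes. The share called was 28.6% in each of the first 3, close to the 21.1%, 23.3% and 26.1% of all features, and 47.6% between genotypes against 26.9%. Icam1, a ligand of the integrin LFA-1, rose to 1.56 and 1.69 with anti-IgM, fell by 1.24 on the log2 scale with PGE2 in Ptger4+/+ cells and was 1.45 higher between genotypes. Cd55 fell to -1.14 and -1.13 with anti-IgM. Of 24 transcription factors of homing genes, 7 rose and 9 fell, 8 rose and 8 fell, 3 rose and 9 fell, and 8 were higher and 3 lower, shares of 66.7%, 66.7%, 50% and 45.8%. Gfi1, a transcriptional repressor, rose to 2.59 with anti-IgM in Ptger4+/+ cells and was also called higher in cells labelled Ptger4-/-. Nfkb1 had 2.13 with anti-IgM in cells labelled Ptger4-/- and was also called higher in Ptger4+/+ cells, with a called difference between these responses. It had -1.97 with PGE2 in Ptger4+/+ cells and 2.35 between genotypes. Crem, a cyclic AMP-responsive factor, rose to 0.91 with PGE2 in Ptger4+/+ cells (adjusted p 9.15e-05 by limma). With PGE2 in cells labelled Ptger4-/-, 0 genes were called by limma in the lists of other receptors, ligands, G protein coupling, adhesion and transcription factors. An unadjusted p under 0.05 was found for 0 of 39, 2 of 21, 3 of 31, 1 of 21 and 4 of 24. It was found for 10 of the 28 migration genes and for 1880 of all 22533 features.

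Markers of B cells and other cells were set beside the same background, 21.1% to 26.9% of all features outside the comparison of PGE2 in cells labelled Ptger4-/-. Of 10 measured B cell markers, 1 rose and 5 fell with anti-IgM in each genotype, Cd79b and Ms4a1 among the falls. With PGE2, 3 B cell markers rose in Ptger4+/+ cells, and between genotypes 3 were lower. With PGE2 in cells labelled Ptger4-/-, where the arrays did not mirror each other, 1 of the 10 fell against 0.146% of all features called. The 1 was Cd79a, a subunit of the B cell receptor, at -0.81 ± 0.06 (adjusted p 0.017 by limma) against 0.92 ± 0.06 in Ptger4+/+ cells, and it was named after its values were seen. Of 8 plasma cell markers 2 rose and 4 fell with anti-IgM in Ptger4+/+ cells, 1 rose and 2 fell in cells labelled Ptger4-/-, 4 fell with PGE2 in Ptger4+/+ cells, and 4 were higher between genotypes, where the list's median was 0.31. B cell markers were called at 60%, 60%, 30% and 30% and plasma cell markers at 75%, 37.5%, 50% and 50% in these comparisons. The 9 markers of marginal zone and follicular B cells gave 1 rise and 3 falls, 3 and 3, 2 and 1, and 2 higher and 1 lower, with medians between -0.04 and -0.01 and shares of 33.3% to 66.7%. At most 2 of 10 T cell, 2 of 9 monocyte, 1 of 6 neutrophil and 1 of 9 dendritic cell markers rose in any of the 5 comparisons, at most 1, 3, 0 and 2 fell, and their shares lay mostly near or below the background, except for 44.4% of monocyte markers between genotypes. Further, 0 of 8 NK cell markers were called by limma in any of them. At most 2 of these markers had an unadjusted p under 0.05, beside 1880 to 8712 of the 22533 features. These are ratios without levels, and the part of any of these cells in the receptor values was not tested.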

How the data were processed

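The 10 arrays with 2 colours were those of the labels, 5 comparisons with 2 dye-exchanged arrays each, on total RNA amplified with T7 polymerase, per the labels' protocols. Values deposited by the authors were read as log2 ratios between the channels. Their normalization, log base and direction are not given in the sources used here. Each array was turned to numerator over denominator with its labelled dyes. No value was missing, and array medians lay between 0.0009 and 0.0148.

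Probe symbols were updated through synonyms of GRCm38.p6. They were current for 17069 probes, updated for 3974 and kept for 68, and 4233 probes had none. Probes of a gene were averaged on each array, which gave 22533 features. All arrays entered 1 fit of limma 3.58.1 in R 4.3.3, with 5 group coefficients and a dye coefficient, 4 residual and 3.13 prior degrees of freedom. The 8 contrasts were adjusted by Benjamini-Hochberg over all features, with a limit of 0.05. The fit was run on simulated data with 200 changed features as a check of its code. The simulated noise was independent, with no dye effect and no RNA shared between comparisons, so it says nothing about those problems in this series.

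The members and lists were chosen with earlier results of these data known. Named were all members, the 3 closest genes of members with a log2 ratio of at least 1 in size, the smallest p per direction in each list, and a fixed set of regulators. The report does not name every gene this rule allows. Alternatives dropped the dye term, centred the arrays, also scaled them, tested probes singly, fitted a comparison's own arrays alone, set a limit of 0.01 or left out each array. Their results were read for the receptors only, and not for the genes of the lists. Leaving out both arrays of PGE2 in cells labelled Ptger4-/- was added after seeing the data. Array values carry no read depth.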

Additional observations from a re-analysis of the deposited data

Results flagged for a closer look

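Results that differed between the genotypes in a test of the difference itself were the following, each as cells labelled Ptger4-/- minus Ptger4+/+ cells on the log2 scale. For the response to anti-IgM at 2 h they were Ccr7 at 0.53, Ccr6 at 0.75 and Cxcr4 at 0.84. For the response to PGE2 at 24 h they were S1pr1 at -0.61, Ccr7 at -0.38, Ccr6 at -0.71, Cxcr5 at -0.47 and Gpr183 at 0.58. Adjusted p by limma ran from 0.0029 for Ccr6 to 0.042 for Ccr7 with PGE2, and from 0.020 for Ccr6 to 0.047 for Ccr7 with anti-IgM. All of these differences lost their call when only the arrays of their own comparisons were fitted. Those for anti-IgM also lost it without the dye term and in most fits with an array left out. With 2 arrays a comparison, no search for single outlying arrays was made.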

How the results depend on the processing

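Centring the arrays, or testing each probe alone, changed no count of called receptors by more than 1.5 times, and no called receptor value reversed under any alternative run. Values near 0 that were not called did change sign, such as Ccr7 with anti-IgM in Ptger4+/+ cells, from -0.16 to 0.11. Of the 5 receptors called with PGE2 in Ptger4+/+ cells, 1 was called from the arrays of that comparison alone, and between 2 and 5 when an array was left out. Of the 6 called between genotypes with PGE2, 2 were called from their own arrays alone, and between 3 and 6 when an array was left out. The 3 called differences of the anti-IgM response became 0 without the dye term, at a limit of 0.01, from their own arrays alone and with both arrays of PGE2 in cells labelled Ptger4-/- left out, and between 0 and 4 when an array was left out. The 5 called differences of the PGE2 response became 2 without the dye term, 2 with centred and scaled arrays, 2 at a limit of 0.01 and 0 from their own arrays alone, and between 1 and 5 when an array was left out. Fits on fewer arrays had fewer residual degrees of freedom, and for the other settings the cause was not tested. Counts for anti-IgM in either genotype stayed within 1.5 times. Without the dye term, S1pr4 and Ccr6 lost their call between genotypes with PGE2. With centred and scaled arrays, Gpr183 lost its call for PGE2 in Ptger4+/+ cells. For PGE2 in cells labelled Ptger4-/- and for the chain, the count of calls by limma was 0 in each alternative run for them. Each ratio compares its samples within an array, and the fit used the dye exchange. The labels do not say which arrays share extracts, so no further pairing was made. With 2 arrays a comparison and no intensities, small changes and undetected probes could not be told from no change.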
